A study of Homo sapiens with 4 samples.

Results

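The genes of MHC class I antigen presentation were HLA-B and HLA-F, which encode class I heavy chains, B2M, which encodes the light chain beta-2-microglobulin, TAP1 and TAP2, which together form the peptide transporter, TAPBP, which encodes the loading factor tapasin, PSMB8, PSMB9 and PSMB10, the catalytic subunits of the immunoproteasome, and ERAP1, an aminopeptidase that trims peptides. They were chosen by name, 10 of the 11963 genes measured, and were read on all 22 probe sets that the array's gene table assigns to 1 of these genes alone, of 22277 probe sets in all. MDA-MB231, a human breast cancer cell line, carried either PIAS1 shRNA2 or a scrambled control shRNA, each expressed from the U6 promoter of an integrated lentivirus after puromycin selection. Cells of each line were kept for 30 h in SCM, a serum-free medium with EGF, bFGF and insulin, or in DMEM with 10% FBS. This gave PIAS1 shRNA2 in SCM, control shRNA in SCM, PIAS1 shRNA2 in DMEM and control shRNA in DMEM, and total RNA of each was hybridized to a single Affymetrix U133A 2.0 array. A ratio between 2 conditions therefore has no replicate check. Whether clones were picked for the stable lines is not given in the sources used here.

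Class I molecules carry peptides of proteins made inside the cell to its surface, where cytotoxic T cells and natural killer cells read them. The proteasome cuts the proteins, TAP pumps the peptides into the endoplasmic reticulum, tapasin and other chaperones hold the transporter and the empty heavy and light chains together, and ERAP1 trims the peptides to fit. In many cell types the genes of this pathway are induced together by interferons, whose signals act on promoters at the interferon-stimulated response element (ISRE), bound by IRF proteins, and at the gamma-activated site (GAS). PIAS1 is known as an inhibitor of interferon signalling and of NF-kappaB.

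In the genome build GRCh38.p14, 7 of the 10 genes lie on chromosome 6, in the MHC region. These are HLA-F (29723434 to 29738532), HLA-B (31353875 to 31357179), TAP2 (32821831 to 32838739), PSMB8 (32840717 to 32844679), TAP1 (32845209 to 32853704), PSMB9 (32854192 to 32859851) and TAPBP (33299694 to 33314078). B2M lies on chromosome 15 (44711517 to 44718145), PSMB10 on chromosome 16 (67934506 to 67936850) and ERAP1 on chromosome 5 (96760813 to 96935854). RefSeq lists a promoter window, 250 bases before to 50 bases after a transcription start, for 10 of the 10 genes, with a second window for TAP1, PSMB8 and ERAP1. The ISRE core, here GAAA followed by any 2 bases and GAAA again on either strand, was found in windows of 8 of the 10 genes, all but HLA-B and PSMB9. Over the whole table it was found in a window of 4.38% of 27305 genes. The stretches that hold it are printed below 5′ to 3′ on the strand of the gene, with the matching bases in capitals (TTTC, 2 bases and TTTC where the match is on the other strand). The GAAA runs are alike because the search required them. Only the 2 bases between them and the bases around the match were free to differ.

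HLA-F: ctccccagagTTTCTCTTTCtctcccaacc
B2M: actctaaGAAAAGGAAACTGAAAacgggaa
TAP1: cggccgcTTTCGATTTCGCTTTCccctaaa
TAP2: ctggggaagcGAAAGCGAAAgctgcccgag
TAPBP: tttggagGAAAGTGAAAGTGAAAggaggaa
PSMB8: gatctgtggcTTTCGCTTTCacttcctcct
PSMB10: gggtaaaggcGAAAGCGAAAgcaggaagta
ERAP1: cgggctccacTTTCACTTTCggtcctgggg

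The stretches lie on chr6:29723268-29723297 (plus strand) for HLA-F, chr15:44711366-44711395 (plus) for B2M, chr6:32853816-32853845 (minus) for TAP1, chr6:32838778-32838807 (minus) for TAP2, chr6:33314076-33314105 (minus) for TAPBP, chr6:32844032-32844061 (minus) for PSMB8, chr16:67936852-67936881 (minus) for PSMB10 and chr5:96807924-96807953 (minus) for ERAP1. B2M, TAP1 and TAPBP each held 2 overlapping cores. The GAS motif, TTCNNNGAA, matched in 2 of the 10 genes, PSMB8 and TAP1, and in 9.38% of all genes. The CCAAT box, bound by NFY, matched in 6 of the 10 genes and in 39.7% of all genes, and the NF-kappaB site in 5 of the 10 genes and in 13.3% of all genes. No match of 1 motif overlapped a match of another. A match is a run of letters and was not shown to be bound.

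**Figure D1:**
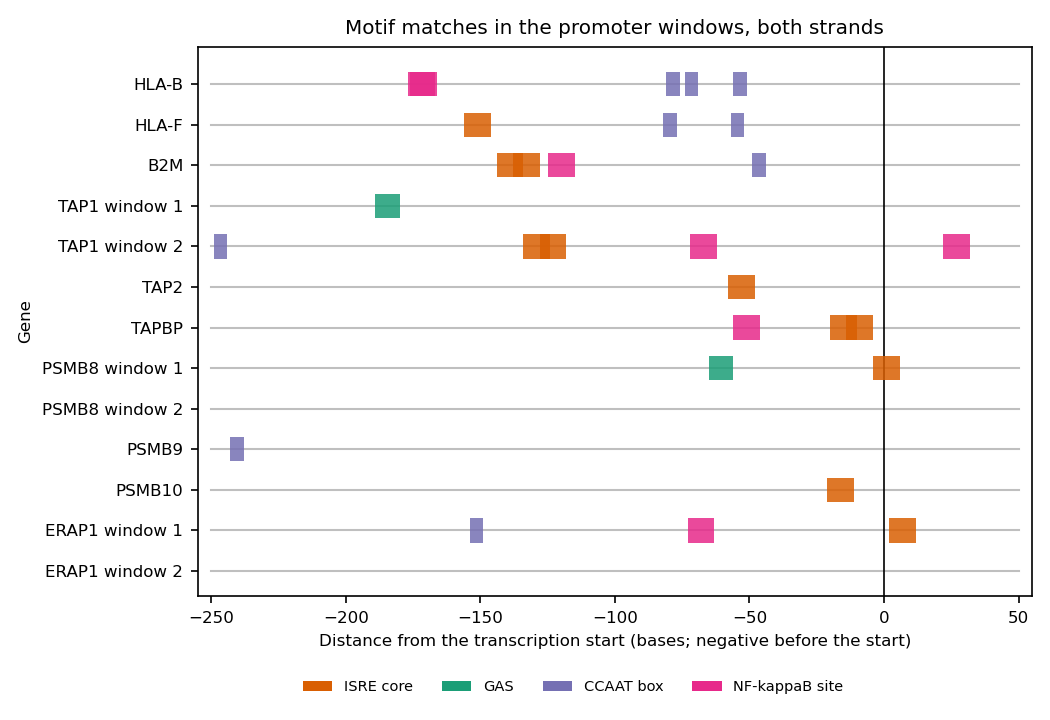
Motif matches in the promoter windows of the class I genes, by distance from the transcription start in bases (x axis, negative before the start), with a line for each window and a coloured box for each match on either strand. The ISRE core appears in a window of every gene but HLA-B and PSMB9, and lies within 58 bases of the start in TAP2, TAPBP, PSMB8, PSMB10 and ERAP1.

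TAP1 and PSMB9 point away from each other with 487 bases between their starts. They are shown because they share this stretch and gave unlike log2 knockdown ratios in SCM, 0.03 for TAP1 and -0.57 for PSMB9. In DMEM their ratios were alike, with -0.46 and -0.49. A part of this stretch in the ratios was not tested. The 250 bases before each start follow, 5′ to 3′ on the strand of each gene, with ISRE core, CCAAT and NF-kappaB matches on either strand in capitals. They cover chr6:32853705-32853954 (minus) for TAP1 and chr6:32853942-32854191 (plus) for PSMB9, and 13 bases, with a CCAAT box, are in both.

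TAP1: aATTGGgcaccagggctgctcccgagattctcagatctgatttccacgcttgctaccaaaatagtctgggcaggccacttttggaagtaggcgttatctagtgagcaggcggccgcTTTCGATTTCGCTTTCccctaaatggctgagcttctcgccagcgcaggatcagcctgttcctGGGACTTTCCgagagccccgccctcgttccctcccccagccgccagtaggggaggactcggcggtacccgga
PSMB9: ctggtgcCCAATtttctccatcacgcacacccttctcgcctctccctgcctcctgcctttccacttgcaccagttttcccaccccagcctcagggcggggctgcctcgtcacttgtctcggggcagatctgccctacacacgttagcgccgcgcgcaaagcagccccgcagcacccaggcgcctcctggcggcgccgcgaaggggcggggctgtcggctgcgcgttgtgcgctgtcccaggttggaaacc

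The ISRE cores and the NF-kappaB site of this stretch lay on the TAP1 side, and no ISRE core, GAS or NF-kappaB match lay in the window of PSMB9.

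The targeted PIAS1 mRNA read 671 with PIAS1 shRNA2 and 1814 with control shRNA in SCM (37.0% of control), and 512 with PIAS1 shRNA2 and 1383 with control shRNA in DMEM (37.0%). Its other 2 probe sets were also lower, at 31.5% and 77.9% of control in SCM and at 23.8% and 23.1% in DMEM. Signals are MAS5 array intensities on a linear scale, with array medians between 569 and 605. Signals under a floor of 130, set from 52 genes of other tissues, were raised to it before ratios were taken, and 69.7% to 73.9% of all probe sets lay above it. Markers of the line were bright, with VIM between 65060 and 74601. Of 11 immune cell markers 2, the leukocyte antigen PTPRC and LYZ, were under the floor on all arrays, and 2, CD14 (355 to 1172) and FCER1G (244 to 384), were above it on all. Of the 7 that could be tested with limma 1, CD14, rose in SCM and 0 passed for the shRNA, and its part in the results below was not tested. Markers expected to be low in this line were not all low, with GATA3 between 1718 and 6040 and ESR1 between 206 and 706.

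All 10 class I genes had a probe set above the floor on all 4 arrays, as did 19 of their 22 probe sets. The other 3, 1 of TAP2 and 2 of ERAP1, were under it on all of them and gave no ratio. Each gene was read from its brightest probe set, and its other probe sets above the floor are described with it. The probe sets of HLA-B and B2M lay between percentiles 99.2 and 99.9 of their arrays, close to the highest signals of any probe set (95873 to 109607), where differences may be read too small. Signals of different genes come from different probes and are not compared as amounts of RNA.

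**Figure D2:**
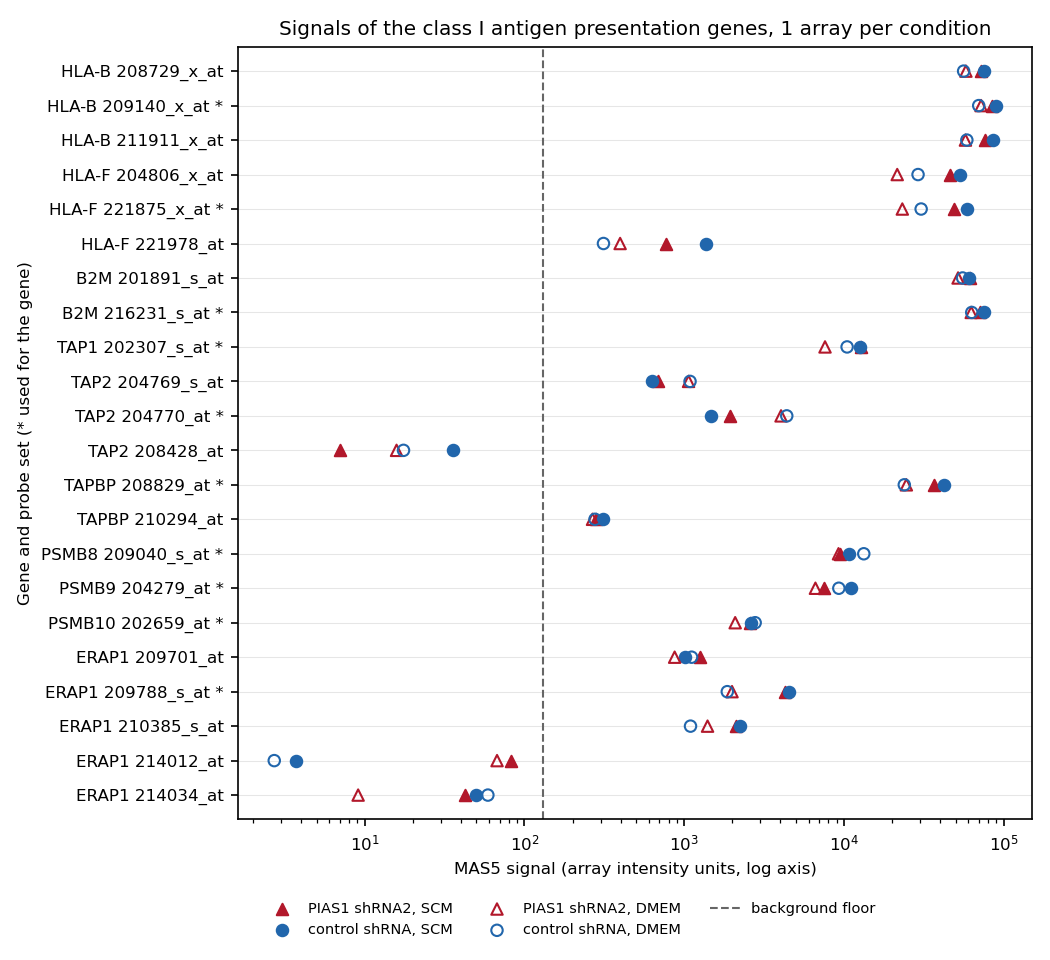
MAS5 signals of all 22 probe sets of the class I genes (x axis, array intensity units, log axis), with 1 point per array. Filled symbols are SCM and open symbols DMEM, triangles PIAS1 shRNA2 and circles control shRNA, and the dashed line is the floor of 130. The SCM points lie to the right of the DMEM points for HLA-F, TAPBP and the brightest ERAP1 probe set and to the left of them for the TAP2 probe sets above the floor.

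With PIAS1 shRNA2 the class I genes, read on their brightest probe sets, lay within 1.5-fold of control in both media, while 7.55% of all genes were higher and 7.36% lower by at least 1.5-fold in SCM, and 7.45% higher and 4.71% lower in DMEM. PSMB9 was the lowest relative to control over both media, with lower signals for HLA-F as well, and in DMEM lower signals for PSMB8, TAP1 and PSMB10. The heavy chain HLA-B, the light chain B2M and ERAP1 differed by little on these probe sets. In DMEM the dimmer ERAP1 probe sets above the floor differed by more and in opposite directions, and in SCM only the dimmest of them differed by more. TAPBP had a log2 ratio of -0.20 in SCM and of 0.04 in DMEM. At a threshold of 2-fold 0 of the 10 genes were higher and 0 lower in SCM, where 2.61% of all genes were higher and 2.14% lower by as much. In DMEM 0 were higher and 0 lower, against 2.19% and 1.21% of all genes. Among the 3833 genes at least as bright as the dimmest of the 10, 0.626% were higher and 0.652% lower in SCM, and 0.470% and 0.391% in DMEM, so that a count of 0 in 10 is near this background.

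The yardstick for values without a test was the spread between probe sets of 1 gene, the SD of their log2 ratios on the same pair of arrays. For genes of this brightness it was 0.16 in SCM and 0.14 in DMEM for the knockdown, and 0.21 in PIAS1 shRNA2 cells and 0.19 in control shRNA cells for the medium. It measures error within arrays and not the spread between cultures. The 2 knockdown comparisons and the medium were also fitted together with limma, with shRNA and medium as terms over all 4 arrays, which takes its error from how far the shRNA effect differed between the media. Of its 24.8 degrees of freedom 1 came from the arrays, and the rest were lent by the other genes. The spread between separate cultures was not measured.

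The catalytic subunits of the immunoproteasome had log2 ratios below 0 with PIAS1 shRNA2 for 3 of 3 in each medium, as did 1926 in SCM and 2017 in DMEM of the 3833 genes of like brightness. Of the 3, PSMB9 passed the limma test and PSMB8 and PSMB10 did not. PSMB9, the beta-1i subunit, had a signal of 7483 with PIAS1 shRNA2 and 11098 with control shRNA in SCM, a ratio of 0.674, and of 6627 with PIAS1 shRNA2 and 9287 with control shRNA in DMEM, a ratio of 0.714. Both PIAS1 shRNA2 values lay under both control shRNA values, and within each medium the log2 ratio was more than 3 times the spread between probe sets. In the limma fit PSMB9 fell by 0.53 on the log2 scale (SE 0.12, adjusted p = 0.0206), the 1 class I gene of 10 that passed, where 1.10% of 9613 genes rose and 0.707% fell. The call was lost without the trend of the variance on brightness (adjusted p = 0.511), without the filter on low signals and without the medium term. In each of these fits 0 genes of the whole array passed, so the loss was not particular to PSMB9. Fits with 1 array left out also lacked the medium term, and in them the effect of PSMB9 lay between -0.66 and -0.40.

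PSMB8, the beta-5i subunit, had a signal of 9456 with PIAS1 shRNA2 and 10761 with control shRNA in SCM, and of 9245 with PIAS1 shRNA2 and 13306 with control shRNA in DMEM. The lower values were again those of the PIAS1 shRNA2 arrays, with log2 ratios of -0.19 in SCM and -0.53 in DMEM. The limma effect was -0.36 (SE 0.12, adjusted p = 0.177). PSMB10, the beta-2i subunit, had a signal of 2576 with PIAS1 shRNA2 and 2623 with control shRNA in SCM, which differed by less than the spread between probe sets. In DMEM its signal was 2084 with PIAS1 shRNA2 and 2780 with control shRNA, a log2 ratio of -0.42, and the limma effect was -0.22 (SE 0.18, adjusted p = 0.725).

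Each immunoproteasome subunit replaces a constitutive subunit in the proteasome core. The constitutive partners did not have the lower signals, with log2 knockdown ratios of 0.21 for PSMB5, 0.34 for PSMB6 and 0.26 for PSMB7 in SCM and of 0.00, 0.06 and -0.06 for the same genes in DMEM. The log2 ratio of PSMB9 minus that of its partner PSMB6 was -0.91 in SCM and -0.55 in DMEM, that of PSMB8 minus PSMB5 was -0.40 and -0.53, and that of PSMB10 minus PSMB7 was -0.29 and -0.36. All 6 differences were below 0. Of 14 genes measured of the constitutive proteasome core, its assembly factor POMP included, 14 had log2 ratios above 0 in SCM, with a median of 0.21, and 10 in DMEM, with a median of 0.02, and 0 of the 14 passed the limma test for the shRNA.

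**Figure D3:**
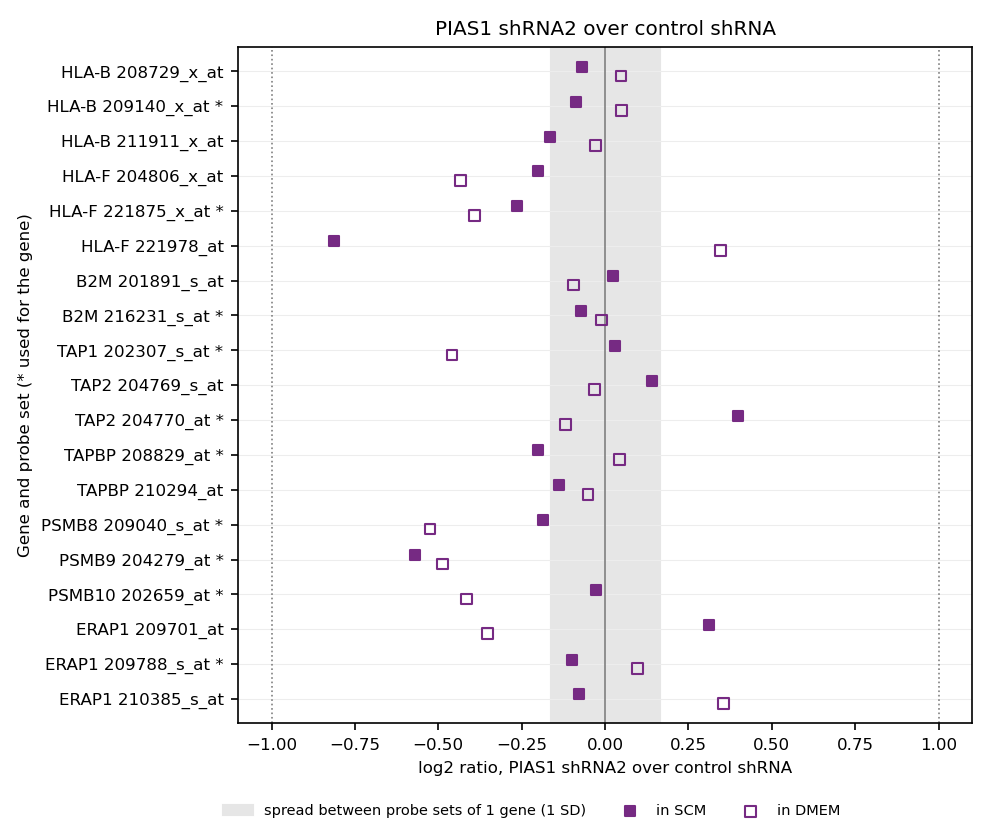
Log2 ratios of PIAS1 shRNA2 over control shRNA for the 19 probe sets of the class I genes above the floor, in SCM (filled) and in DMEM (open). The grey band is the spread between probe sets of 1 gene (1 SD) and the dotted lines mark 2-fold. PSMB9 lies to the left of the band in both media, HLA-B and B2M lie close to 0, and the dim HLA-F probe set lies on opposite sides in the 2 media.

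Of the heavy and light chains, HLA-B had a signal of 84099 with PIAS1 shRNA2 and 89395 with control shRNA in SCM, and of 72170 with PIAS1 shRNA2 and 69777 with control shRNA in DMEM. Its 3 probe sets gave log2 knockdown ratios between -0.16 and -0.07 in SCM and between -0.03 and 0.05 in DMEM, all within the spread between probe sets or at its edge. B2M had a signal of 71275 with PIAS1 shRNA2 and 74965 with control shRNA in SCM, and of 62634 with PIAS1 shRNA2 and 63095 with control shRNA in DMEM. Its 2 probe sets lay between -0.09 and 0.02.

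HLA-F, a nonclassical heavy chain, had a signal of 48789 with PIAS1 shRNA2 and 58554 with control shRNA in SCM, and of 23193 with PIAS1 shRNA2 and 30422 with control shRNA in DMEM. The PIAS1 shRNA2 value was the lower in each medium, and the medium set the larger gap. The log2 knockdown ratio was -0.26 in SCM and -0.39 in DMEM, and the limma effect of -0.33 did not pass (SE 0.10, adjusted p = 0.0893). It passed when only genes above the floor on all arrays were tested (adjusted p = 0.0450) and after quantile normalization (adjusted p = 0.0214).

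The probe sets of HLA-F did not all give the same ratio. The 2 bright ones and all 3 of HLA-B carry the array maker's _x_at mark, for probes that can bind other sequences, and class I heavy chain genes are near copies of each other. The third HLA-F probe set, without the mark, had a signal of 774 with PIAS1 shRNA2 and 1361 with control shRNA in SCM, and of 397 with PIAS1 shRNA2 and 312 with control shRNA in DMEM. Its log2 knockdown ratios were -0.81 in SCM and 0.35 in DMEM, so the lower HLA-F signal in DMEM was not seen on it. HLA-E, another nonclassical heavy chain, had log2 knockdown ratios of -0.29 in SCM and -0.34 in DMEM on its brightest probe set, with the _x_at mark, and of -0.28 and -0.54 on its probe set without it. How much of the bright HLA-F signals came from other heavy chains was not tested. On their brightest probe sets HLA-C had ratios of -0.04 and 0.02 and HLA-G of -0.16 and -0.12, and 0 of these 3 heavy chains passed the limma test for the shRNA. The probe sets of HLA-G, all with the mark, differed in DMEM, where the dimmest gave -1.20 (43.7% of control) and the next -0.55, beside -0.27 and -0.22 on the same probe sets in SCM.

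In the transport and loading step, TAP1 was lower with PIAS1 shRNA2 in DMEM, and in SCM TAP2 was higher and TAPBP lower. Each of these differences was more than the spread between probe sets, on the brightest probe set. TAP1 had a signal of 12841 with PIAS1 shRNA2 and 12587 with control shRNA in SCM, and of 7611 with PIAS1 shRNA2 and 10463 with control shRNA in DMEM, so that the lowest of the 4 values was that of PIAS1 shRNA2 in DMEM. Its log2 knockdown ratio was 0.03 in SCM and -0.46 in DMEM. TAP2 had a signal of 1933 with PIAS1 shRNA2 and 1465 with control shRNA in SCM, and of 4037 with PIAS1 shRNA2 and 4384 with control shRNA in DMEM. Its log2 knockdown ratio was 0.40 in SCM and -0.12 in DMEM, and its dimmer probe set gave 0.14 and -0.03. The log2 knockdown ratio of TAP1 minus that of TAP2 was -0.37 in SCM and -0.34 in DMEM, and neither gene passed the limma test for the shRNA. TAPBP gave log2 knockdown ratios of -0.20 in SCM and 0.04 in DMEM, and its dim probe set gave -0.14 and -0.05. ERAP1 gave -0.10 in SCM and 0.10 in DMEM on its brightest probe set. Its middle probe set gave -0.08 in SCM and 0.35 in DMEM, and the dimmest above the floor gave 0.31 and -0.35, so that the probe sets of ERAP1 did not share a direction in either medium.

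The knockdown ratio was lower in DMEM than in SCM by 0.34 for PSMB8, 0.39 for PSMB10, 0.49 for TAP1 and 0.52 for TAP2, all on the log2 scale and all above the spread between probe sets in either medium. For the other 6 genes the difference of SCM minus DMEM lay between -0.24 and 0.13. Among them TAPBP, with -0.24, and ERAP1, with -0.20, exceeded the same spread in the opposite direction. That spread was measured for single ratios and not for a difference between media. The median difference over the 10 genes was 0.03, beside 0.02 over genes of like brightness. No test of this difference was possible, as 4 arrays leave no residual degree of freedom for it.

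More class I genes passed the test for the medium than for the shRNA, 6 against 1 of 10. The same held over all 9613 genes, of which 22.2% rose and 23.2% fell with the medium, against 1.10% and 0.707% with the shRNA. The contrast was therefore not particular to the class I genes. In SCM the heavy chain genes HLA-B and HLA-F, TAP1, TAPBP and ERAP1 rose and TAP2 fell in the limma fit over both lines, while B2M and the 3 immunoproteasome genes did not pass. In PIAS1 shRNA2 cells 2 of the 10 genes, HLA-F and ERAP1, were at least 2-fold higher in SCM than in DMEM and 1, TAP2, was at least 2-fold lower, where 9.60% of all genes were higher and 8.97% lower by as much. In control shRNA cells 1, ERAP1, was higher and 1, TAP2, lower, against 9.86% and 8.70% of all genes. For genes of like brightness the shares higher and lower were 9.26% and 10.4% in PIAS1 shRNA2 cells and 9.13% and 10.9% in control shRNA cells. In the limma fit 5 of the 10 rose and 1 fell, where 22.2% of 9613 genes rose and 23.2% fell. The median log2 ratio of the 10 was 0.26 in each line, and that of genes of like brightness was -0.05 in PIAS1 shRNA2 cells and -0.07 in control shRNA cells. Both media comparisons use arrays that also enter the knockdown comparisons.

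ERAP1 had a signal of 4249 with PIAS1 shRNA2 and 4547 with control shRNA in SCM, against 1991 with PIAS1 shRNA2 and 1860 with control shRNA in DMEM. Both SCM values were more than 2 times the DMEM values, with ratios of 2.13 in PIAS1 shRNA2 cells and 2.44 in control shRNA cells, and ERAP1 rose by 1.19 in the limma fit (SE 0.17, adjusted p = 2.14e-06). Its 2 dimmer probe sets above the floor gave smaller medium ratios. On the log2 scale the middle one gave 0.59 in PIAS1 shRNA2 cells and 1.02 in control shRNA cells, and the dimmest gave 0.52 and -0.14, so that it did not share the difference in control shRNA cells. HLA-F was higher in SCM by a ratio of 2.10 in PIAS1 shRNA2 cells and 1.92 in control shRNA cells (limma effect 1.01, SE 0.10, adjusted p = 3.46e-09). Its probe set without the _x_at mark, with 1.95 and 4.36, was also higher in SCM in both lines.

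TAPBP had a signal of 36861 with PIAS1 shRNA2 and 42392 with control shRNA in SCM, against 24581 with PIAS1 shRNA2 and 23861 with control shRNA in DMEM. The ranges of the media did not overlap, with log2 ratios of 0.58 in PIAS1 shRNA2 cells and 0.83 in control shRNA cells, and TAPBP rose by 0.71 in the limma fit (SE 0.10, adjusted p = 2.4e-06), but its dim probe set, between 267 and 308 on the 4 arrays, gave log2 ratios of only 0.07 and 0.16. TAP1 rose by 0.51 (SE 0.13, adjusted p = 0.00176), with ratios of 1.69 in PIAS1 shRNA2 cells and 1.20 in control shRNA cells. HLA-B rose by 0.29 (SE 0.09, adjusted p = 0.00982), and its 3 probe sets gave log2 medium ratios between 0.22 and 0.54 over both lines. B2M gave 0.22 (adjusted p = 0.0512) and did not pass, but passed when only genes above the floor on all arrays were tested (adjusted p = 0.0234) and after quantile normalization (adjusted p = 0.0351).

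TAP2 went the other way from its partner. Its SCM signals of 1933 with PIAS1 shRNA2 and 1465 with control shRNA stood against DMEM signals of 4037 with PIAS1 shRNA2 and 4384 with control shRNA, ratios of 0.479 and 0.334. TAP2 fell by 1.32 in the limma fit (SE 0.18, adjusted p = 1.25e-06), and its dimmer probe set was lower in SCM too, with log2 ratios of -0.63 in PIAS1 shRNA2 cells and -0.80 in control shRNA cells. The log2 medium ratio of TAP1 minus that of TAP2 was 1.82 in PIAS1 shRNA2 cells and 1.85 in control shRNA cells.

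The limma calls for the medium depended on how the variance was modelled. Without the trend of the variance on brightness HLA-F, TAPBP, ERAP1 and TAP2 still passed, but HLA-B (adjusted p = 0.249) and TAP1 (adjusted p = 0.13) did not. Without the filter on low signals 0 of the 10 genes passed, as did 0 genes of the whole array. Fits with 1 array left out also lacked the shRNA term. The effect of TAP1 was 0.28 without the array of PIAS1 shRNA2 in DMEM.

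**Figure D4:**
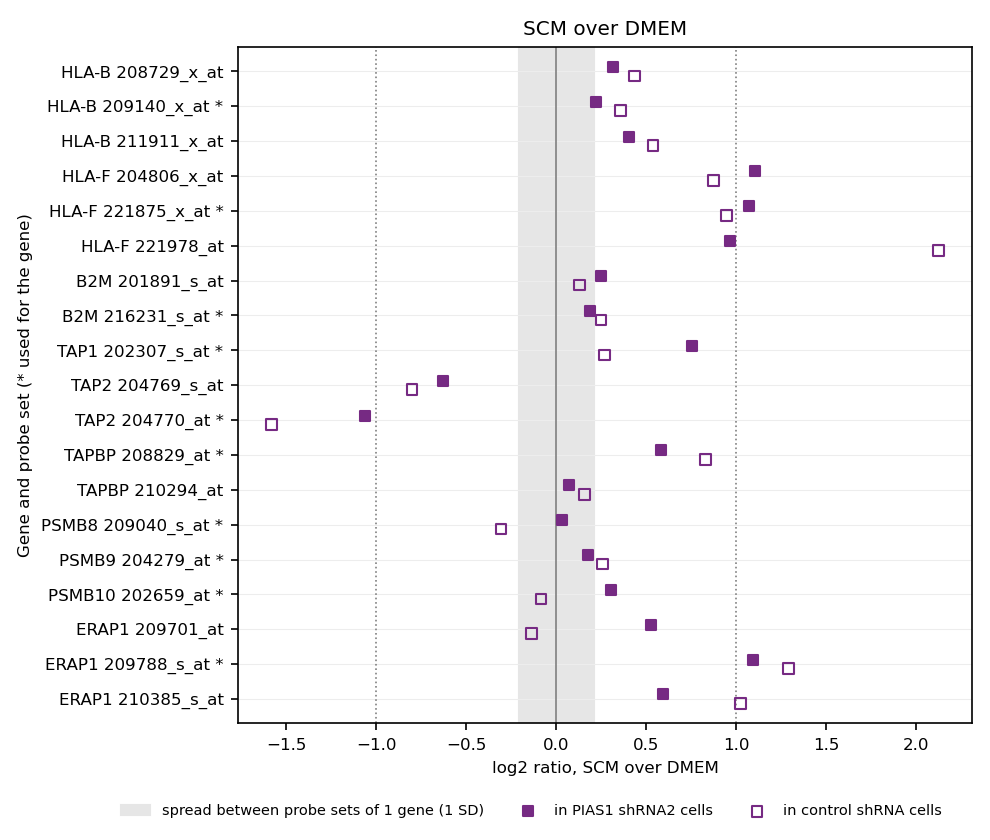
Log2 ratios of SCM over DMEM for the 19 probe sets of the class I genes above the floor, in PIAS1 shRNA2 cells (filled) and in control shRNA cells (open), with the spread between probe sets of 1 gene (1 SD) as a grey band and 2-fold as dotted lines. Both TAP2 probe sets lie left of the band, and HLA-F lies near or beyond 2-fold to the right on all 3 probe sets.

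The immunoproteasome genes gave log2 medium ratios between -0.31 and 0.31. PSMB8 gave 0.03 in PIAS1 shRNA2 cells and -0.31 in control shRNA cells, PSMB9 0.18 and 0.26, and PSMB10 0.31 and -0.08, and none of the 3 passed the limma test (adjusted p from 0.165 to 0.666). Their constitutive partners were lower in SCM, with log2 ratios between -0.56 and -0.30 in PIAS1 shRNA2 cells and between -0.84 and -0.51 in control shRNA cells, and PSMB5, PSMB6 and PSMB7 fell in the limma fit. Of the 14 constitutive genes 11 fell and 0 rose, where 23.2% of all 9613 genes fell and 22.2% rose. The log2 ratio of each immunoproteasome gene was above that of its partner, by 0.33 for PSMB8, 0.74 for PSMB9 and 0.83 for PSMB10 in PIAS1 shRNA2 cells, and by 0.20, 1.10 and 0.76 for the same genes in control shRNA cells.

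Other genes of the pathway were described by lists. The limma counts of these and the later lists stand beside the shares over all 9613 genes. These were 22.2% rising and 23.2% falling with the medium, and 1.10% and 0.707% with the shRNA. Of the 3 other heavy chains measured 3 rose in SCM, HLA-E with log2 ratios of 1.01 in PIAS1 shRNA2 cells and 0.97 in control shRNA cells, HLA-G with 0.51 and 0.54, and HLA-C with 0.24 and 0.30. All 3 were read on probe sets with the _x_at mark, so the rises need not be independent, and cross-binding was not tested. The HLA-E probe set without the mark gave 1.56 and 1.30. HLA-C read between 69380 and 85397, near the top of the array range. Of 9 chaperones of the endoplasmic reticulum that help class I molecules fold and load, 5 rose in SCM, 1 fell and 3 did not pass. HSPA5, the chaperone BiP, gave 1.07 and 1.01, and PDIA3, the tapasin partner ERp57, gave 1.01 and 0.84. Of 7 genes of the proteasome activator and of other peptidases 2 rose and 4 fell. THOP1, a peptidase that destroys class I peptides, gave -2.37 in PIAS1 shRNA2 cells and -2.15 in control shRNA cells, PSME3, a proteasome activator subunit, -1.45 and -2.08, BLMH, bleomycin hydrolase, -0.98 and -1.30, and TPP2, tripeptidyl peptidase 2, -0.70 and -0.81. For the shRNA 0 of these 19 genes passed.

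Class I-like molecules, which share the fold but have other tasks, were mostly higher in SCM, with 5 of 8 tested rising and 0 falling. FCGRT, the neonatal Fc receptor chain, gave log2 ratios of 1.83 in PIAS1 shRNA2 cells and 1.57 in control shRNA cells, HFE, the iron regulator, 1.16 and 1.08, and ULBP2, a ligand of the receptor NKG2D, 0.92 and 1.01. MR1, which presents vitamin B metabolites, gave 1.35 in PIAS1 shRNA2 cells and 0.23 in control shRNA cells. HFE fell with the shRNA (log2 effect -0.63, adjusted p = 0.0284), with ratios of -0.59 in SCM and -0.68 in DMEM, and the other 7 did not pass. The HFE probe set used carries the _x_at mark, and whether it bound other sequences was not tested.

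**Figure D5:**
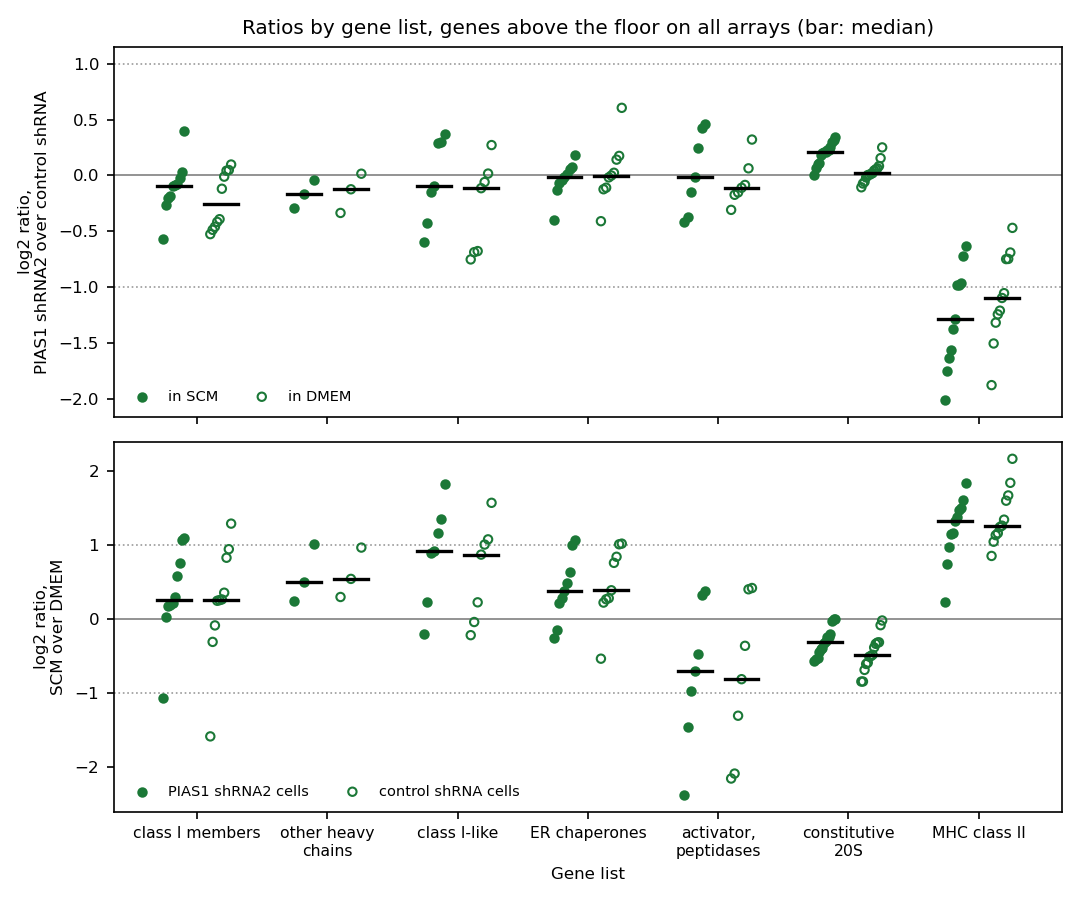
Log2 ratios by gene list for genes above the floor on all arrays, with 1 point per gene and a bar at each median. The upper part shows PIAS1 shRNA2 over control shRNA, in SCM (filled) and in DMEM (open), the lower part SCM over DMEM, in PIAS1 shRNA2 cells (filled) and in control shRNA cells (open), and the dotted lines mark 2-fold. In the upper part the class II genes lie below 0 and the class I genes lie around it.

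The genes of the MHC class II pathway, which presents peptides from outside the cell, were lower in the PIAS1 shRNA2 cells. The list includes their transcriptional regulator CIITA. Of 12 class II genes 12 had lower signals with PIAS1 shRNA2 in each medium, 7 of them at least 2-fold in SCM and 8 in DMEM. In the limma fit 11 of 12 fell, all but CIITA (adjusted p = 0.128). The median log2 ratio was -1.33 in SCM and -1.15 in DMEM, beside -0.09 and -0.26 for the class I genes. In SCM the lowest were HLA-DQB1 with -2.01, HLA-DQA1 with -1.91, HLA-DRB1 with -1.75 and HLA-DRB4 with -1.64. In DMEM, among those above the floor on both arrays, they were HLA-DRB4 with -1.88, HLA-DOA with -1.50, HLA-DQB1 with -1.32 and HLA-DRA with -1.24. HLA-DQA1 was under the floor with PIAS1 shRNA2 in DMEM, so that its ratio of -1.21 there understates the difference and its place in this order is not known. With the medium 11 of 12 class II genes rose, again all but CIITA (adjusted p = 0.169 in the limma fit), and 0 fell. Without the trend of the variance 0 genes of the whole array passed for the shRNA, HFE and the class II genes included.

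Among the regulators, IRF9, which binds the ISRE after interferon, rose in SCM, with log2 ratios of 1.62 in PIAS1 shRNA2 cells and 0.91 in control shRNA cells, while RFX5, a factor of the heavy chain and B2M promoters, fell, with -0.81 and -1.14. NFYB and NFYC, subunits of the CCAAT factor NFY, also fell, with -0.85 and -0.39 for NFYB and -0.62 and -0.52 for NFYC, as did NFKB1, a subunit of NF-kappaB, with -0.25 and -0.80, and IRF1 with -0.23 and -0.65. Of 11 such factors tested 2 rose and 6 fell with the medium, beside 22.2% and 23.2% of all genes, and 0 passed for the shRNA. Among those above the floor on both arrays, the log2 knockdown ratio largest in size was 0.61 for NFKB1 in SCM, with 0.07 in DMEM. In DMEM it was -0.64 for IRF9, with 0.07 in SCM. NLRC5, STAT2 and USF1 were not analysed here. Of 10 interferon receptors, kinases and their inhibitors 4 rose with the medium, beside 22.2% of all genes, and 0 passed for the shRNA. Among the 4 were IFNGR1 with 1.69 and 0.78 and IFNGR2, the other chain of the interferon gamma receptor, with 1.54 and 1.30. The log2 knockdown ratio largest in size in this list was 0.65 for IFNGR1 in SCM, with -0.25 in DMEM. In DMEM it was 0.96 for JAK2, with 0.57 in SCM, followed by -0.91 for SOCS3, with 0.14 in SCM.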

How the data were processed

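The 4 conditions of MDA-MB231 cells were each measured on 1 array. The values deposited are the authors' MAS5 signals, linear array intensities that they had scaled to a 2%-trimmed mean of 2499 on each array. MAS5 version, settings and detection calls were not given in the sources used here. GEO's labels call the knockdown PIAS1 shRNA and the protocol names PIAS1 shRNA2. Of 22277 probe sets 19070 had 1 gene in the platform's table, 1043 had several and 2164 are unnamed here, and 19058 matched RefSeq (GRCh38.p14). The brightest probe set by mean log2 signal stood for a gene. The floor of 130 was the highest of the 4 arrays' 75th percentiles over 67 probe sets of 52 genes of other tissues. Ratios of 2 arrays have no test. The effects of shRNA and medium were fitted with limma 3.58.1 in R 4.3.3 (lmFit, eBayes with a trend, Benjamini-Hochberg adjustment, threshold 0.05) on log2 signals of the 9613 genes above the floor on at least 2 arrays. The labels do not say whether cultures were separate, and the number of arrays limits the precision. Alternatives were other floors, scalings, ways to join probe sets, filters and model terms, and leaving out each array. The steps were tested on simulated data. Promoter windows and sequences are from the RefSeq table of GRCh38.p14, and motifs were searched on both strands. Named genes are all members, with every probe set above the floor, and of each other list up to 4 in each comparison, those with the largest ratios above the floor on both arrays. PSMB5, PSMB6 and PSMB7 were named as partners of members, and VIM, GATA3, ESR1, PTPRC, LYZ, CD14, FCER1G and CIITA were chosen after their values were seen. The members and lists were chosen with earlier results of these data known. Other software was matplotlib 3.10.9, pandas 2.3.3 and NumPy 2.4.6 in Python 3.11.15.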

Additional observations from a re-analysis of the deposited data

Results flagged for a closer look

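The following 3 probe sets had knockdown ratios of opposite sign in the media, both beyond the spread between probe sets over all genes above the floor. This spread was 0.30 in SCM and 0.29 in DMEM, wider than that for genes as bright as the class I genes. By the narrower spread more genes of the lists would stand here, such as IFNGR1 with 0.65 in SCM and -0.25 in DMEM. With 1 array per condition the difference was not tested for any of the 3. The HLA-F probe set without the _x_at mark gave a log2 knockdown ratio of -0.81 in SCM and 0.35 in DMEM, a difference of -1.16. The dimmest ERAP1 probe set above the floor gave 0.31 in SCM and -0.35 in DMEM, a difference of 0.66. MR1, a class I-like molecule, gave 0.37 in SCM and -0.75 in DMEM, a difference of 1.13. The brightest probe sets of HLA-F and ERAP1 gave differences of 0.13 and -0.20.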

How the results depend on the processing

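Of 316 log2 ratios of class I genes under alternatives, 294 moved by less than the spread between probe sets and 22 moved by more. The 22 came from the choice of probe set, 10 with the dimmest, 9 with the mean and 3 without _x_at probe sets. Other floors could move none, as the brightest probe set of each gene lay above every floor used. TAP1, PSMB8, PSMB9 and PSMB10 have 1 probe set each, so that choice could not move them. Many of the 294 were thus fixed in advance and do not measure robustness. The sign changed in 11 of the 316, of which 9 were under 0.1 in size. The other 2 were for HLA-F with PIAS1 shRNA2 in DMEM, at 0.35 with the dimmest probe set and at 0.35 without _x_at probe sets. Reading each gene from the mean of its probe sets gave a median knockdown log2 ratio in DMEM of -0.11, and reading it from the dimmest gave -0.073. In PIAS1 shRNA2 cells the count of class I genes at least 2-fold higher in SCM was 1 after quantile normalization, 1 with the mean of probe sets and 0 with the dimmest, and the count lower was 0 with the mean and 0 with the dimmest, as in control shRNA cells (0 and 0). Without _x_at probe sets, an alternative chosen after seeing the data that leaves 9 genes, the count higher was 1 in PIAS1 shRNA2 cells and 2 in control shRNA cells. At 1.5-fold it was 3 in control shRNA cells.

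For the shRNA, limma without the trend called 0 genes higher and 0 lower (smallest adjusted p = 0.377, 855 genes at an unadjusted p under 0.05), and 0 class I genes. Without the filter and without the medium term it also called 0 genes higher, 0 lower and 0 class I genes. With genes above the floor on all arrays, and with quantile normalization, 2 class I genes were lower. For the medium, limma without the trend called 1493 genes higher and 1479 lower, with 3 class I genes higher, and without the filter 0 genes higher and 0 lower, with 0 and 0 class I genes. Without the shRNA term TAP1 was lost (adjusted p = 0.061).

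Leaving out each array in turn left 1 term in the fit, so that an effect of the shRNA then held part of the effect of the medium, and the arm with 1 array was assumed to vary like the other. Counts of genes and of class I genes were 0 to 0 in every such fit. The shRNA effect ranged from -0.20 to 0.16 for HLA-B, -0.86 to 0.21 for HLA-F, -0.17 to 0.083 for B2M, -0.59 to 0.16 for TAP1, -0.65 to 0.93 for TAP2, -0.49 to 0.34 for TAPBP, -0.51 to -0.20 for PSMB8, -0.66 to -0.40 for PSMB9, -0.37 to -0.068 for PSMB10 and -0.64 to 0.64 for ERAP1. The medium effect ranged from 0.28 to 0.74 for TAP1, -0.40 to 0.13 for PSMB8, -0.068 to 0.50 for PSMB9 and -0.10 to 0.32 for PSMB10. No paired analysis was possible because each condition has 1 array, and the fit with both terms already compares the lines within each medium. Signals near the top of the array range limit HLA-B and B2M, and HLA-C among the other heavy chains.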
